A study of Mus musculus with 6 samples.

Results

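Notch signalling genes of vessel sprouting were followed in mouse retinas, as a set of 10 genes chosen by name out of 28627 genes in the deposited table: the ligands Dll4 and Jag1, the receptors Notch1 and Notch4, the nuclear effector Rbpj, and the targets Hes1, Hey1, Hey2, Heyl and Nrarp. All 10 were found once in the table, and all 10 passed the filter on low values, which kept 16681 genes. Retinas of Emcn-/- pups (3 samples) and of Emcn+/+ littermates (3 samples) were profiled by poly-A RNA sequencing. All pups were at postnatal day 15 and had gone through the oxygen-induced retinopathy model, so no sample stands for a retina without oxygen treatment. In this model capillaries regress while pups are kept in high oxygen, and new vessels sprout once they are back in room air and the retina is hypoxic. The product of Emcn is endomucin, a mucin-like glycoprotein on the surface of endothelial cells, and the comparison asked which retinal transcripts differed when it was deleted. The sources used here do not give the kind of Emcn allele or say that samples were separate animals, so the p-values cover the spread between samples, which may be technical.

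Notch signalling passes between touching cells: a ligand on one cell makes proteases cut the receptor on its neighbour, and the freed receptor fragment joins Rbpj on DNA and switches on the Hes and Hey genes, which encode transcriptional repressors, and Nrarp, a feedback inhibitor. In sprouting retinal vessels the growth factor VEGF induces Dll4 in the leading tip cells, and Notch in the following stalk cells holds back further tip cells, an effect that Jag1 can oppose. The same pathway also acts in arteries, in mural cells and, outside vessels, in retinal progenitors and Müller glia.

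Depth was 14865868 to 17087621 gene-assigned reads per library. Values are given as normalised reads, which are read counts divided by 1 factor per library, close to 1, and not adjusted for gene length. Emcn stood at 1.95, 1.04 and 4.62 normalised reads in the Emcn-/- libraries, against 93.3, 80.6 and 100.5 in the Emcn+/+ libraries, so each library followed its genotype label. The 8 rod photoreceptor markers checked for the tissue label summed to between 787983 and 837254 normalised reads in Emcn-/- and between 720227 and 762415 in Emcn+/+. The libraries that stood apart were Emcn-/- replicate 2, with the lowest mean of the 16 endothelial markers, and the 3 Emcn+/+ libraries, each in another way. Replicate 3 of both genotypes also had the highest sums of the 5 astrocyte markers. These were 3969 normalised reads in Emcn-/- and 4636 in Emcn+/+, against 2102 to 2366 in the other libraries. Gfap alone made up 2803 and 3372 of these sums, against 999 to 1347 in the other libraries. Lens markers (5 of the 6 listed genes found) summed to between 53.6 and 154 normalised reads in Emcn-/-, against 37622 in Emcn+/+ replicate 1 and 19.7 and 22.2 in the other Emcn+/+ libraries. Emcn+/+ replicate 3 was the 1 library with Xist reads typical of a female (17641, against at most 5 elsewhere). Emcn+/+ replicate 2 was the lowest for markers of the retinal pigment epithelium and of the ciliary body and iris, tissues that border the retina. The 8 pigment epithelium markers summed to 8408, 11728 and 10888 normalised reads in Emcn-/-, against 7351, 3547 and 5836 in Emcn+/+, and the 7 ciliary body and iris markers to 4920, 4903 and 5142 in Emcn-/-, against 4111, 2819 and 3610 in Emcn+/+. Both sums were higher in each Emcn-/- library. All 7 tested markers of either list had positive log2 fold changes, with medians of 0.83 and 0.61. At an unadjusted limma p under 0.05, 7 of 7 pigment epithelium and 3 of 7 ciliary body and iris markers were higher. Among all tested genes 3.67% were. After adjustment 0 of them passed with limma. DESeq2 called 1 ciliary body and iris marker, beside 0.568% of the genes for which it gave an adjusted p. The part of these tissues and libraries in the results was not tested beyond leaving out each library.

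None of the 10 Notch genes passed an adjusted p of 0.05 between Emcn-/- and Emcn+/+ retinas (limma on log2(value + 1), Benjamini-Hochberg over 16681 genes), where 0.00599% of all tested genes passed, a share made up by Emcn alone. DESeq2 and edgeR on the recovered reads also called 0 of the 10 (DESeq2 gave Nrarp no adjusted p), while DESeq2 called 0.568% of the genes for which it gave an adjusted p. At an unadjusted p under 0.05, limma had 2 of 10 members, Notch1 and Heyl, both with lower values in Emcn-/-, beside 8.14% of all tested genes (4.47% lower and 3.67% higher). For 3 of 10 members the libraries separated completely by genotype, against 14.4% of all tested genes: Notch1 and Heyl were lower (6.94% of all tested genes) and Hey2 was higher (7.48%) in each Emcn-/- library. Of the log2 fold changes, 4 were positive and 6 negative, with a median of -0.03 beside 0.01 over all tested genes.

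**Figure D1:**
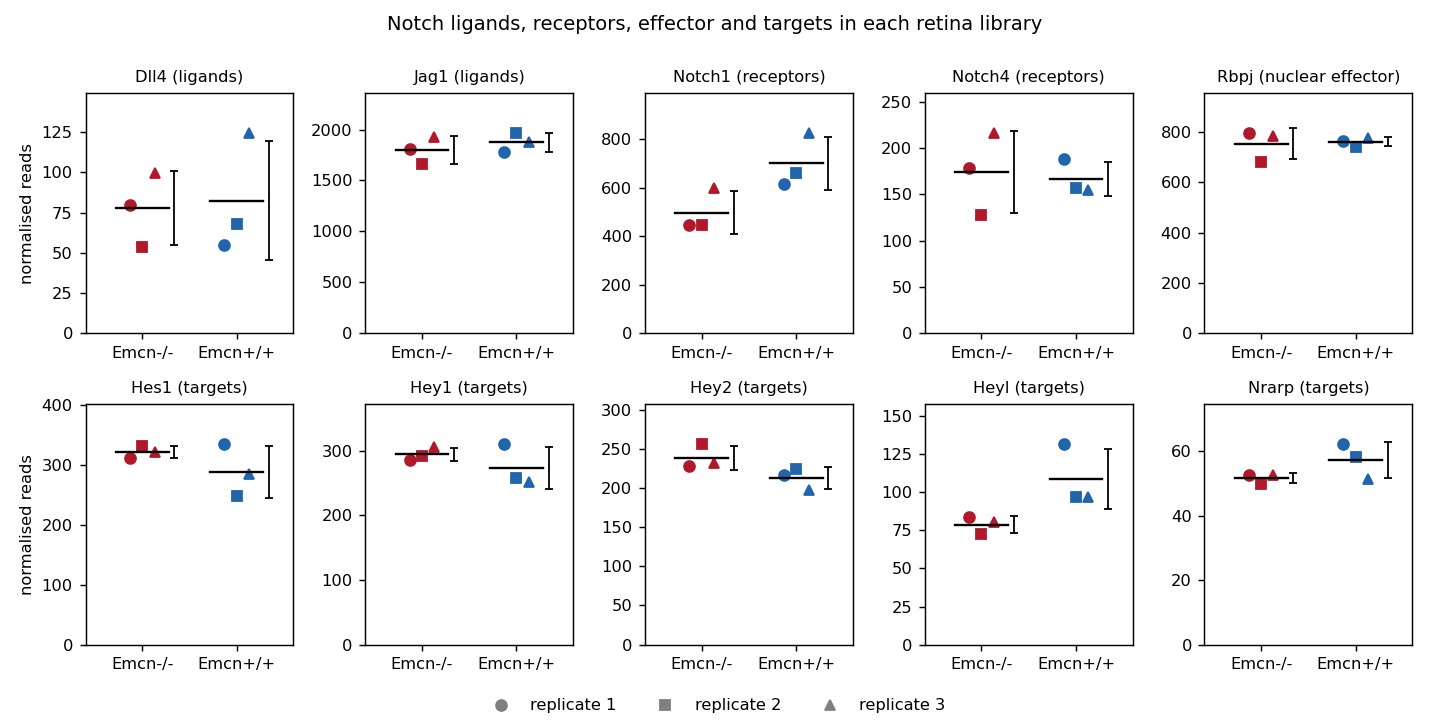
Normalised reads (y axis, from 0) of each of the 10 Notch genes in the 3 Emcn-/- libraries (red) and the 3 Emcn+/+ libraries (blue). Points are libraries, with 1 marker shape per replicate number; horizontal lines are means and bars 1 SD. Notch1, Heyl and Hey2 are the panels in which the genotypes do not overlap.

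Neither ligand passed the test, and both differed between genotypes by less than the spread between libraries. Dll4 (ENSMUSG00000027314, GRCm38 chromosome 2, 119325784 to 119335962, plus strand), the tip cell ligand, had 79.8, 53.9 and 99.8 normalised reads in the Emcn-/- libraries, against 55.0, 67.7 and 124.5 in the Emcn+/+ libraries. The ranges overlapped, with Emcn+/+ replicate 3 above all Emcn-/- libraries, and replicate 3 was the highest of its genotype on both sides. The log2 fold change was -0.04 ± 0.33 (SE, n = 3 each; 95% interval -0.78 to 0.71; limma adjusted p = 0.98), a wide interval. Its sign turned when Emcn-/- replicate 2 was left out (0.20) or Emcn+/+ replicate 3 was left out (0.30), without passing the test. Dll4 shares 5.56% of its exonic bases with the opposite-strand gene Gm14207, whose reads cannot be told apart without known strand.

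Jag1 (GRCm38 chromosome 2, 137081456 to 137116644, minus strand), the ligand that can oppose Dll4 in sprouting, was far more even. It had 1812, 1658 and 1927 normalised reads in the Emcn-/- libraries, against 1778, 1966 and 1877 in the Emcn+/+ libraries. The groups overlapped, and the log2 fold change of -0.06 ± 0.07 (SE; limma adjusted p = 0.832) had a 95% interval of -0.22 to 0.10.

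Promoter windows (RefSeq, GRCm38.p6; 250 bases before and 50 after the annotated start) were found for 7 of the 10 members (8 windows), and not for Hes1, Hey1 or Heyl. Short stretches around E-box-type letters of the ligands and of Nrarp are shown because the Hes and Hey repressors bind such letters. The letters CACGCG, in capitals and searched on both strands, stood in the windows of Dll4 and Jag1 and in 9.27% of all windows; CACGTG stood in that of Nrarp and in 7.15% of all windows. On the opposite strand CACGCG reads CGCGTG, and the 2 sets of letters do not overlap in these stretches.
Dll4 (chr2:119325572-119325611, plus strand): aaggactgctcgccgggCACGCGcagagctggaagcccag
Jag1 (chr2:137116669-137116708, minus strand): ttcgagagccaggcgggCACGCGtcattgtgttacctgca
Jag1 (chr2:137116747-137116770, minus strand): cCGCGTGttgagaagaggtggcca
Nrarp (chr2:25180633-25180672, plus strand): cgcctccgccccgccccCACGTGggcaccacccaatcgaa
These matches describe the letters only and are not evidence of binding.

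Notch1 (ENSMUSG00000026923, GRCm38 chromosome 2, 26457903 to 26516663, minus strand), the receptor that restrains tip cell number, showed the largest difference of the 10 members. It had 446.9, 444.0 and 599.8 normalised reads in the Emcn-/- libraries, against 616.0, 658.1 and 824.5 in the Emcn+/+ libraries. Each Emcn-/- library lay below each Emcn+/+ library, with Emcn-/- replicate 3 close to Emcn+/+ replicate 1. The means were 496.9 ± 89.1 in Emcn-/- and 699.5 ± 110.2 in Emcn+/+ (SD, n = 3 each), which is 29.0% lower. The log2 fold change was -0.50 ± 0.14 (SE; 95% interval -0.82 to -0.17) with an unadjusted limma p of 0.00719, rank 248 of 16681 genes, and an adjusted p of 0.473 with limma, 0.472 with edgeR and 0.0999 with DESeq2. It did not pass the test over all genes with any of these tools.

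The sample titles fall into 2 number series, with 2 libraries of each genotype in the 140s and 1 of each in the 180s. The Notch1 difference was of like size within both: -0.51 in the 140s and -0.46 in the 180s, as differences of mean log2(value + 1). With the series as a term in the limma fit the log2 fold change was again -0.50 and the adjusted p 0.0854. The lowest adjusted p over all alternatives was 0.0593, from DESeq2 run on the filtered genes alone, which is also above 0.05. Leaving out 1 library at a time gave between -0.64 (without Emcn-/- replicate 3) and -0.37 (without Emcn+/+ replicate 3), with the same sign each time.

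Exonic length moved with such differences in the whole table. Among all tested genes with over 10000 bp of merged exons, 1180 of 1469 had negative log2 fold changes, with a median of -0.12, and 26.2% were lower without overlap; up to 10000 bp the median was 0.02 and 5.04% were lower without overlap. Notch1, with 14232 bp, is in the long class, and once a trend on exonic length was removed from each library its log2 fold change was -0.38 (limma adjusted p = 0.771). Rbpj, the other member over 10000 bp, was at -0.02. Notch1 shares 7.5% of its exonic bases with the opposite-strand gene 0610009E02Rik and 2.91% with Gm13568, and without known strand the reads of such partners cannot be told apart.

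**Figure D2:**
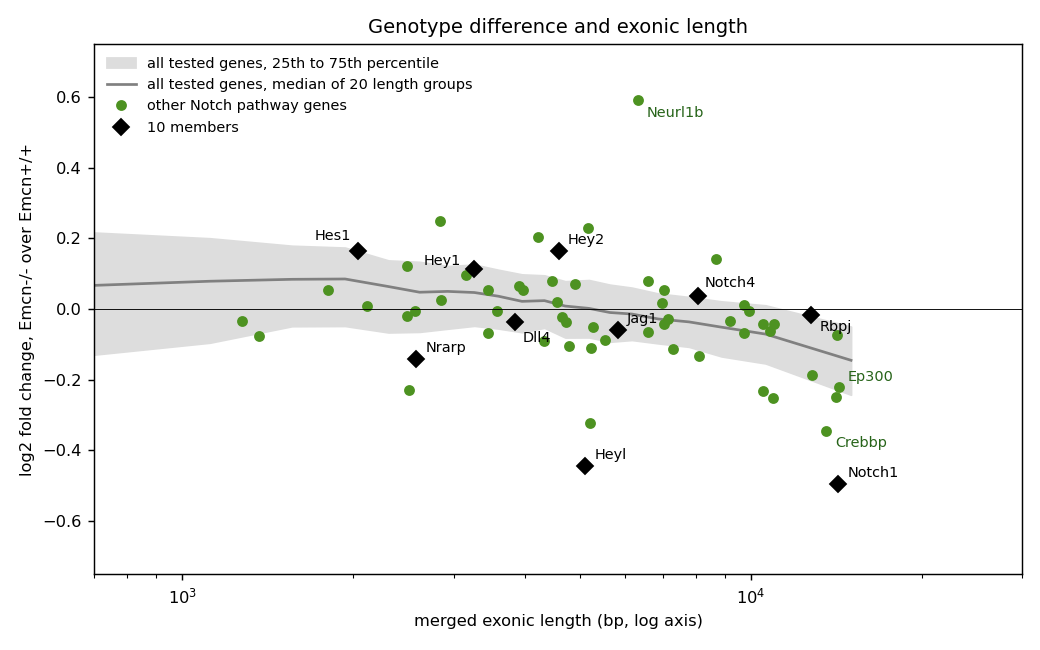
Log2 fold change of Emcn-/- over Emcn+/+ (y axis) against merged exonic length in bp (x axis, log scale). Diamonds are the 10 Notch genes, green points are 53 other tested Notch pathway genes, the grey line is the median of all tested genes in 20 equal groups of length and the band their 25th to 75th percentile. The line falls below 0 for long genes, and Notch1 (-0.50) and Heyl (-0.45) lie below the band at their lengths.

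Notch4 (GRCm38 chromosome 17, 34564268 to 34588503, plus strand), the receptor that is largely restricted to endothelium, had 178.2, 127.6 and 216.3 normalised reads in the Emcn-/- libraries, against 187.7, 156.6 and 155.1 in the Emcn+/+ libraries. The groups overlapped, the Emcn-/- libraries holding both the lowest and the highest value. The estimate was 0.04 ± 0.19 as a log2 fold change (SE; 95% interval -0.40 to 0.47; limma adjusted p = 0.971). Its sign turned without Emcn-/- replicate 3 (-0.14), Emcn+/+ replicate 2 (-0.00) or Emcn+/+ replicate 3 (-0.01).

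Endothelial marker values also varied between the libraries. The 16 endothelial markers, among them the junction gene Cdh5 and the angiopoietin receptor gene Tek, summed to 6789, 4139 and 6914 normalised reads in the Emcn-/- libraries, against 6006, 6316 and 6527 in the Emcn+/+ libraries. Emcn-/- replicate 2 was the low one, with a list mean of -0.60 on the log2 scale (each gene centred on its mean over the 6 libraries), while the other libraries lay between 0.01 and 0.26. In this library Dll4 and Notch4 stood at their lowest too, at centred log2 values of -0.50 and -0.39. Dll4 was nearly as low in Emcn+/+ replicate 1 (-0.47), where the endothelial list mean was 0.01. It was highest in Emcn+/+ replicate 3 (0.70), where that mean was 0.08. In whole retina, fewer endothelial cells and less RNA per cell cannot be told apart.
When all values were scaled to the endothelial list mean of each library, Dll4 was at 0.07 and Notch4 at 0.14 (log2 fold changes, limma adjusted p = 1.00 for each), a scaling that moved the median of all tested genes to 0.11. The list itself had 5 positive and 11 negative log2 fold changes with a median of -0.08, and 0 of 16 markers passed.

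Dll4 was set beside the 10 tip cell genes listed, which include Esm1, Apln and Angpt2 and not Dll4 itself. Their sum was 2400, 2464 and 2262 normalised reads in the Emcn-/- libraries, against 1442, 1620 and 2278 in the Emcn+/+ libraries. Emcn-/- replicate 2 thus held a high tip cell sum with the lowest Dll4 value of all. Emcn+/+ replicate 3 held the highest Dll4 value and a tip cell sum like that of the Emcn-/- libraries. As a list mean of centred log2 values, the tip cell genes stood at 0.05, 0.08 and 0.25 in the Emcn-/- libraries. In the Emcn+/+ libraries they stood at -0.41, -0.45 and 0.48, so replicate 3 was the highest library by that measure too. Of the 10 genes, 7 had positive and 3 negative log2 fold changes. At an unadjusted limma p under 0.05, 3 were higher and 0 lower, beside 3.67% and 4.47% of all tested genes. The libraries separated completely by genotype for 3, all higher, beside 7.48% of all tested genes. After adjustment 0 passed with limma, and DESeq2 called 1 as higher, beside 0.568% of the genes for which it gave an adjusted p. The list was chosen with earlier results of these data known. Within the 140s title series the Dll4 difference was 0.10 and within the 180s it was -0.32 (log2 scale, 1 library of each genotype in the 180s).

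**Figure D3:**
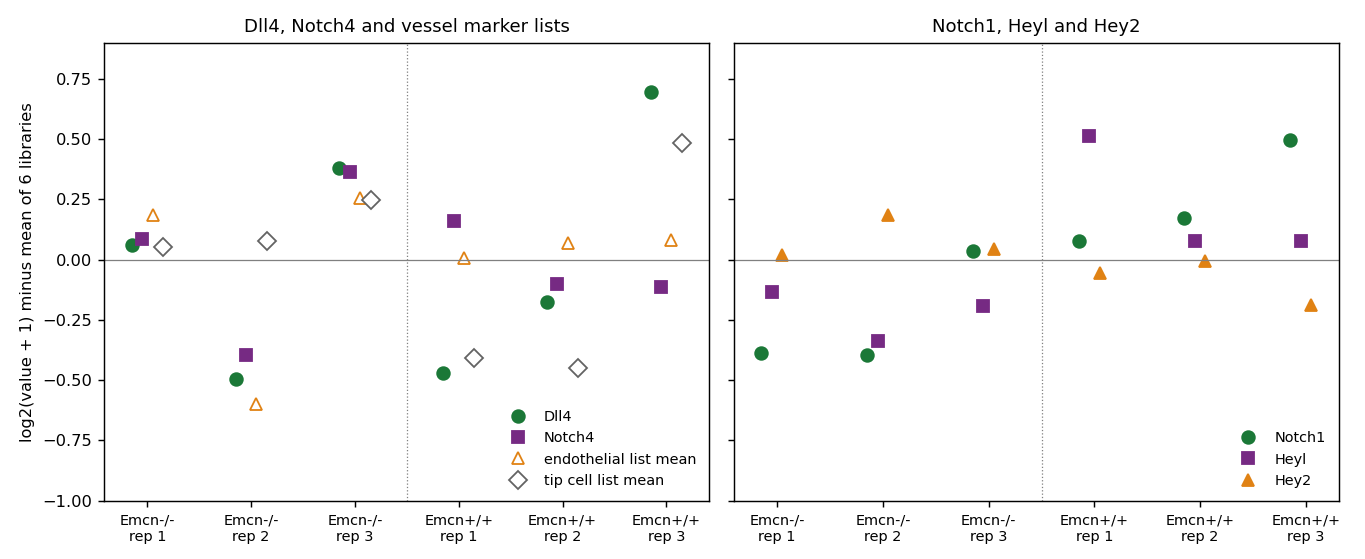
Log2(value + 1) in each library minus the mean of the 6 libraries (y axis), for Dll4 and Notch4 with the means of the endothelial and tip cell lists (left) and for Notch1, Heyl and Hey2 (right). The 3 Emcn-/- libraries are left of the dotted line. Emcn-/- replicate 2 is low for Dll4 (-0.50), Notch4 (-0.39) and the endothelial list (-0.60) and not for the tip cell list (0.08).

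The genes whose profile over the 6 libraries lay closest to that of Dll4 were Antxr2, the capillary morphogenesis gene, the class II antigen presentation gene H2-Ab1, and Tfpi, the inhibitor of the tissue factor coagulation pathway. Their root mean square differences from Dll4, in centred log2 values over 6 libraries, were 0.11, 0.11 and 0.13, where Dll4 itself had an SD of 0.48. Closest to Notch4, which had an SD of 0.26, were Rflnb, Mybl1 and Zfp873, at 0.03, 0.05 and 0.06. With 6 points and 16681 candidates such likeness is only a description.

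Rbpj (GRCm38 chromosome 5, 53466152 to 53657362, plus strand), the DNA-binding partner of every Notch receptor, differed between the genotypes by less than the spread between libraries. It had 795.5, 681.5 and 783.7 normalised reads in the Emcn-/- libraries, against 764.3, 741.5 and 776.5 in the Emcn+/+ libraries. The groups overlapped, and Emcn-/- replicate 2 was the lowest. The log2 fold change of -0.02 ± 0.08 (SE; limma adjusted p = 0.967) had a 95% interval of -0.19 to 0.15. The processed pseudogenes Rbpj-ps1 and Rbpj-ps3 could share some of its reads, so its level is uncertain to that extent.

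Among the targets, Heyl had lower values in Emcn-/- while Hey2, Hes1 and Hey1 had slightly higher ones, and none passed the test. Heyl (ENSMUSG00000032744, GRCm38 chromosome 4, 123233556 to 123249875, plus strand), a target best known from vascular smooth muscle cells and pericytes, had 83.7, 72.6 and 80.4 normalised reads in the Emcn-/- libraries, against 131.7, 97.3 and 97.2 in the Emcn+/+ libraries. The groups did not overlap, and Emcn+/+ replicate 1 stood well above the rest. The means were 78.9 ± 5.71 in Emcn-/- and 108.7 ± 19.9 in Emcn+/+ (SD, n = 3 each), which is 27.4% lower. The log2 fold change was -0.45 ± 0.17 (SE; 95% interval -0.83 to -0.06), with an unadjusted limma p of 0.0296 and an adjusted p of 0.561 with limma, 0.543 with edgeR and 0.799 with DESeq2.

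Emcn+/+ replicate 1, the library with lens reads, moved the Heyl estimate most. Without it the log2 fold change was -0.30 (limma adjusted p = 0.816), and the other leave-one-out fits gave -0.52 to -0.39. Within the 140s title series the difference was -0.53 and within the 180s -0.27. Removing the trend on exonic length left it at -0.44; its 5113 bp of exons compare with a median of 4151 bp over all tested genes.

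The 10 mural cell markers summed to 5330, 3472 and 5792 normalised reads in the Emcn-/- libraries, against 4629, 4441 and 4382 in the Emcn+/+ libraries, and Rgs5 alone made up 4297, 2641 and 4512 of these in Emcn-/- and 3615, 3519 and 3409 in Emcn+/+. Emcn-/- replicate 2 was the lowest library for both the list sum and Heyl, while the other Emcn-/- libraries were the highest for the list sum. Of the 8 tested mural markers, 4 had positive and 4 negative log2 fold changes, with a median of 0.02, and 0 passed with limma. DESeq2 called 1, Acta2, as higher (adjusted p = 0.000668), beside 0.568% of the genes for which it gave an adjusted p. The pericyte genes Abcc9, Kcnj8, Cspg4 and Pdgfrb were at -0.38, -0.29, -0.17 and -0.04, and Rgs5 and Higd1b at 0.08 and 0.15. The contractile genes Acta2 and Myh11 were at 1.04 and 1.14. Acta2 had 181.1, 224.1 and 251.4 normalised reads in Emcn-/-, against 102.7, 89.0 and 127.8 in Emcn+/+, without overlap. The Myh11 values overlapped between genotypes. Tagln and Cnn1 did not pass the filter on low values. The part of mural cell content in the Heyl values was not tested. Notch3, the receptor of mural cells and not among the 10 members, had 202.5, 123.4 and 265.2 normalised reads in Emcn-/-, against 220.9, 210.4 and 188.9 in Emcn+/+ (-0.13 ± 0.24 SE on the log2 scale; limma adjusted p = 0.905). Its sign turned without Emcn-/- replicate 2 (0.17).

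Hey2 (ENSMUSG00000019789, GRCm38 chromosome 10, 30832359 to 30842801, minus strand), a target of arterial endothelium, was the member with higher values in each Emcn-/- library. It had 227.8, 256.2 and 232.0 normalised reads in the Emcn-/- libraries, against 216.8, 224.3 and 197.7 in the Emcn+/+ libraries. The groups did not overlap, but the gap between 227.8 and 224.3 was small beside the spread within either genotype. The log2 fold change was 0.16 ± 0.10 (SE; 95% interval -0.07 to 0.40; limma adjusted p = 0.698), and it ranged from 0.11 to 0.20 as single libraries were left out.

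The Hey2 promoter is shown because it was the 1 member window with letters of the Rbpj motif. The letters CGTGGGAA, in capitals and searched on both strands (TTCCCACG on the opposite one), stood in it at 2 places, beginning 207 and 5 bases before the annotated start. They were present in 0.734% of all 32851 windows, and 4 windows held at least 2 matches. The related letters TGTGGGAA were in 0 of the 8 member windows and in 1.86% of all windows; the shorter GTGGGAA, which lies within both, was in 6.38%. The stretch runs from 250 bases before the start to 12 bases after it.
Hey2 (chr10:30842772-30843033, minus strand): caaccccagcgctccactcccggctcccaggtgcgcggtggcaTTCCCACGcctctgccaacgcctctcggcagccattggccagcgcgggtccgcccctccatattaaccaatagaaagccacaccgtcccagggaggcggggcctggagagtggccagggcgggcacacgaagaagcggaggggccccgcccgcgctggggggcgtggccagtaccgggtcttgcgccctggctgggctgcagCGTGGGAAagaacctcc
A match is a description of the letters and says nothing of occupancy in these retinas.

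Hes1 (GRCm38 chromosome 16, 30064384 to 30067796, plus strand), a target found in many cell types including Müller glia, had 311.6, 330.9 and 320.7 normalised reads in the Emcn-/- libraries, against 333.9, 247.5 and 283.9 in the Emcn+/+ libraries. The Emcn-/- libraries were close together and Emcn+/+ replicate 1 lay above all of them, so the groups overlapped. Its log2 fold change was 0.16 ± 0.12 (SE; 95% interval -0.10 to 0.43; limma adjusted p = 0.721).

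Hey1 (GRCm38 chromosome 3, 8663359 to 8667256, minus strand), a target of stalk cells and arteries on the same chromosome as Emcn but far from it, had a pattern like that of Hes1. It had 286.3, 291.5 and 305.9 normalised reads in the Emcn-/- libraries, against 310.1, 257.7 and 252.3 in the Emcn+/+ libraries. Emcn+/+ replicate 1 was again the highest library, and the groups overlapped. Expressed as a log2 fold change this was 0.11 ± 0.11 (SE; 95% interval -0.13 to 0.35; limma adjusted p = 0.791). Without that library the estimates were 0.28 for Hes1 and 0.21 for Hey1, and without Emcn+/+ replicate 2 they were 0.06 and 0.07, none of which passed.

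Nrarp (GRCm38 chromosome 2, 25180758 to 25183339, plus strand), which damps Notch and supports Wnt signalling in stalk cells, had the fewest reads of the 10, between 47 and 63 in a library. It had 52.6, 49.8 and 52.7 normalised reads in the Emcn-/- libraries, against 62.2, 58.4 and 51.3 in the Emcn+/+ libraries. Only Emcn+/+ replicate 3 lay within the Emcn-/- range. The difference came to -0.14 ± 0.18 on the log2 scale (SE; 95% interval -0.55 to 0.26; limma adjusted p = 0.851). The opposite-strand gene Gm38287 covers 79.4% of its exonic bases, so its reads are uncertain.

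**Figure D4:**
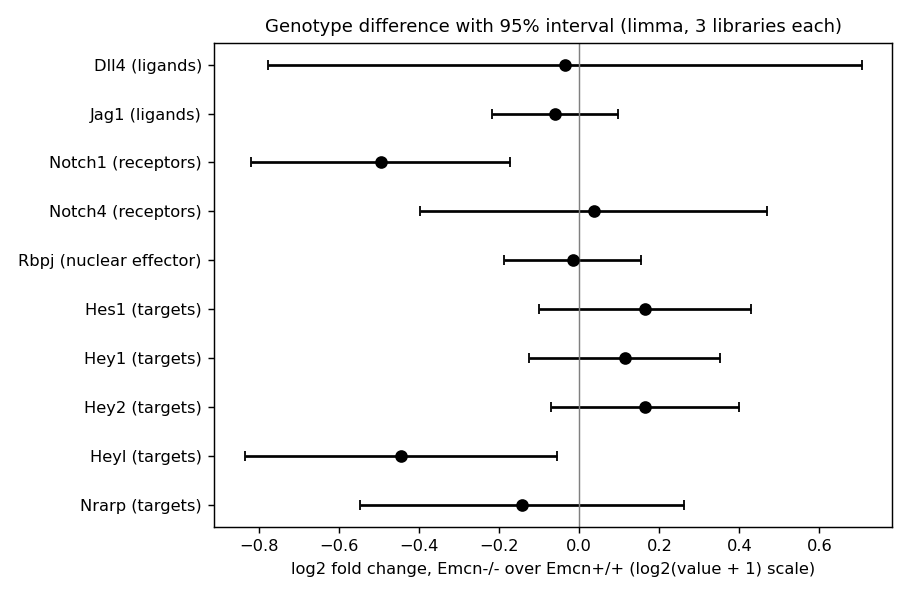
Log2 fold change of Emcn-/- over Emcn+/+ (x axis, log2(value + 1) scale) of the 10 Notch genes, with points for the limma estimate and bars for its unadjusted 95% interval (n = 3 libraries each). The intervals of Notch1 (-0.82 to -0.17) and Heyl (-0.83 to -0.06) lie below 0 and the other 8 include it; none passed after adjustment over all genes.

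Levels between the members were compared per kilobase of merged exons, over all 6 libraries. Jag1 had the highest level, 315 ± 19.2 normalised reads per kilobase (SD, n = 6), followed by Hes1 at 149.6 ± 16.4 and Hey1 at 87.0 ± 7.4, and the ranges of these genes did not overlap with that of their next neighbour. Rbpj (59.4 ± 3.25), Hey2 (49.2 ± 4.18) and Notch1 (42.0 ± 10.03) followed with ranges that overlapped from one to the next. Notch4 (21.1 ± 3.81), Nrarp (21.1 ± 1.85), Dll4 (20.8 ± 7.19) and Heyl (18.4 ± 4.09) formed the lowest group and could not be put in order beyond their spread. Notch1 had 34.9 ± 6.26 per kilobase in Emcn-/- and 49.2 ± 7.75 in Emcn+/+ (SD, n = 3 each). Per-kilobase levels depend on the annotated exons, which for Notch1 and Rbpj add up to over 10 kb.

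The rest of the pathway was described with a list of 55 genes by role, of which 53 passed the filter on low values. None of the 53 passed at an adjusted p under 0.05 (limma over all genes; edgeR also called 0 and DESeq2 called 1, Crebbp), and 7 had an unadjusted p under 0.05, 6 lower and 1 higher, beside 8.14% of all tested genes (4.47% lower and 3.67% higher). The median log2 fold change was -0.03, with 20 positive and 33 negative values. The libraries separated completely by genotype for 3 higher and 9 lower genes of the 53, beside 7.48% higher and 6.94% lower among all tested genes.

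No listed ligand, receptor or receptor-modifying enzyme outside the 10 members passed. Dll1, a ligand of neural progenitors, had 259.0, 216.8 and 268.0 normalised reads in Emcn-/-, against 214.7, 221.5 and 206.4 in Emcn+/+ (0.20 ± 0.11 SE on the log2 scale; limma adjusted p = 0.672). The neuronal ligand-like gene Dner was at -0.10 ± 0.14 (limma adjusted p = 0.856). Mfng, one of the fringe enzymes that modify the receptors and tune their choice between Delta and Jagged ligands, was at 0.25 ± 0.13 (limma adjusted p = 0.661). Aph1b, a subunit of the gamma-secretase complex that cuts Notch, had 388.5, 407.7 and 348.4 normalised reads in Emcn-/-, against 335.0, 320.7 and 317.8 in Emcn+/+ (0.23 ± 0.09, limma adjusted p = 0.561). Its values did not overlap, and it was the 1 listed gene with higher values at an unadjusted p under 0.05. Numbl, which promotes receptor removal, and Hes6, a neuronal relative of Hes1, were at 0.14 ± 0.08 and 0.05 ± 0.08 (limma adjusted p = 0.689 and 0.877).

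The coactivators and corepressors of the Rbpj complex held 5 of the 6 genes with lower values at an unadjusted p under 0.05. Crebbp, a histone acetyltransferase of the active Notch complex, had 1221, 1229 and 1229 normalised reads in the Emcn-/- libraries, against 1550.5, 1633 and 1489.6 in the Emcn+/+ libraries. The Emcn-/- values were nearly equal and lay below all Emcn+/+ values. Its log2 fold change was -0.34 ± 0.06 (SE), with an adjusted p of 0.305 with limma, 0.347 with edgeR and 0.00715 with DESeq2; without Emcn+/+ replicate 3 limma called it too (-0.38, adjusted p = 0.0253), in a fit that called 0.855% of genes. Its relative Ep300 was at -0.22 ± 0.05 (limma adjusted p = 0.400), and the corepressors Spen and Ncor1 at -0.25 ± 0.07 and -0.19 ± 0.05 (limma adjusted p = 0.445 and 0.451). Mib1, the ubiquitin ligase that lets ligands signal, was at -0.25 ± 0.07 (limma adjusted p = 0.476).

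These are long genes, and length moved with their values. All 10 tested list genes with over 10000 bp of exons (among them Crebbp, Ep300, Mib1, Ncor1 and Spen) had negative log2 fold changes, with a median of -0.20, beside -0.12 for all tested genes of that length. Up to 10000 bp, 23 of the 43 list genes were negative and 20 positive, with a median of -0.00. With the trend on exonic length removed, Crebbp was at -0.23 (limma adjusted p = 0.668), Mib1 at -0.17, Spen at -0.13, Ep300 at -0.10 and Ncor1 at -0.08. Whether length accounts for the values of these genes was not tested.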

How the data were processed

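Poly-A RNA of 6 retina samples was sequenced. Reads were placed on GRCm38, per the submitters' processing notes; the sources used here name no aligner, counter or annotation, and the labels' protocols do not settle whether strand was kept. The table deposited by the authors holds a read signal per gene: divided by the smallest value of its library, 100% of values came out whole (within 0.001 of a read), which gave back read counts. The divisors equalled DESeq2's inverse size factors. A count of 0 allows up to 3 reads, or 2.77 to 3.28 normalised reads, for counting error only. Libraries differed beyond sampling noise in every pair (at least 23.7% of genes).

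Genotypes were compared in R 4.3.3 by limma 3.58.1 on log2(value + 1) with a mean-dependent variance prior, genotype as the only term, 16681 genes kept by edgeR's filter (minimum count 10), and Benjamini-Hochberg adjustment over them. These fold changes understate the change of low genes. edgeR 4.0.16 and DESeq2 1.42.0 (on the whole table, as quoted, and on the filtered genes) were run on recovered reads. Positions and merged exonic lengths came from GENCODE M21 (GRCm38). Of 17 alternatives, 14 were planned, and the length trend (loess, span 0.5), the endothelial scaling and the choice of genes given to DESeq2 were made after seeing the data. The members and lists were chosen with earlier results of these data known. Named were all 10 members, Emcn, the pathway gene with the smallest p in each role (1 is not reported here), any past the threshold, and the 3 genes most like Dll4 and Notch4; Ep300, Ncor1, Spen and list members given as markers were named after their values were seen. The fit was tested on simulated reads with the means and dispersions of the 16681 genes of this comparison (2 runs). There limma found 33.6% of genes changed 1.5-fold, 64.9% of those changed 2-fold and 89.4% of those changed 4-fold, and made 16 false calls. Each run changed more genes than the main fit called and drew genes independently, without shifts shared between genes. These shares may therefore be too high for the real comparison.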

Additional observations from a re-analysis of the deposited data

How the results depend on the processing

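With DESeq2 71 genes were called in place of 1, and 1 other pathway gene in place of 0; scaling to the endothelial list called 17 genes. DESeq2 was run first on the filtered genes, with 82 calls (15 higher, 67 lower; 1 other pathway gene, Crebbp), and then on the whole table after those calls were seen (22 higher, 49 lower). Leaving out 1 library gave 0 to 147 genes, the highest without Emcn+/+ replicate 3, and 0 to 1 other pathway genes. In all 17 alternatives 0 of the 10 members were called, but DESeq2 on the filtered genes gave an adjusted p to only 3 of them (Jag1, Notch1 and Rbpj). Notch1, Heyl, Hey2, Hes1, Hey1 and Nrarp kept their sign in every alternative that gave them an adjusted p. Signs of log2 fold changes turned, each without passing the test, when single libraries were left out: Dll4 ranged from -0.28 to 0.30, Notch4 from -0.14 to 0.24, Rbpj from -0.0576 to 0.0538, Notch3 from -0.38 to 0.17 and Dner from -0.27 to 0.0232. Endothelial scaling turned Dll4 (0.0695), Jag1 (0.0450), Rbpj (0.0884) and Dner (0.000498), and removing the length trend turned Rbpj (0.0851). The cause was not tested. DESeq2 on the whole table gave Emcn, Nrarp and Neurl1b no adjusted p; missing values are not counted. No paired analysis was possible because the replicate numbers follow sample order only. With 3 libraries each, limma recovered 33.6% of simulated 1.5-fold changes, a share that may be too high for the real comparison.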
